A study of Homo sapiens with 24 samples.

Results

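Nuclear transport depends on the nuclear pore and on the carriers that ferry cargo through it. The genes described here are the 47 protein-coding genes whose symbols begin with NUP (nucleoporins), IPO, TNPO, KPNA or KPNB (importins and transportins) or XPO (exportins), each followed by a number, or by T in XPOT. They were found by matching the Ensembl identifiers of the deposited table, which lists 63299 genes, to GENCODE release 44. Of the 47, 45 passed the filter on low counts and were tested among 20240 genes. KPNA7 and NUP62CL were at 0 in each of the 24 libraries, which allows a level of up to 0.168 to 0.301 CPM (counts scaled to the effective library size, in the usual unit of expression), the range over groups of the level that 3 counts would give. NUP210L passed the filter with only 2 to 15 counts per library.

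The pore is a ring of scaffold complexes, among them the Y complex and the inner ring, which hold a central channel filled with nucleoporins rich in phenylalanine-glycine (FG) repeats. Carriers of the importin beta family bind cargo on one side and release it on the other, steered by the small GTPase Ran. Importin alpha proteins link cargo with a classical nuclear localisation signal to importin beta, and exportins carry proteins, tRNA or pre-miRNA out of the nucleus.

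A2780 is a platinum-sensitive human ovarian cancer cell line, and A2780cis is its isogenic platinum-resistant derivative, which received 1 µM cisplatin for 1 passage in every few to keep its resistance. Both lines were left untreated or exposed to 1 µM 5-FdU-ECyd, a duplex drug that joins the antimetabolites 2'-deoxy-5-fluorouridine and 3'-C-ethynylcytidine. Cells were collected 6 h or 12 h after the change of medium, and untreated cells received fresh medium at the same time. This gave 8 groups of 3 libraries of total RNA: A2780 control 6 h, A2780 5-FdU-ECyd 6 h, A2780 control 12 h, A2780 5-FdU-ECyd 12 h and the same 4 groups of A2780cis. Platinum resistance is represented by a single derived line, and while the study calls the triplicates biological, the labels do not say whether they came from separate cultures, so p-values measure the spread between these libraries, part of which may be technical.

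Library totals ranged from 11077368 to 21901406 counts. Markers of epithelium and of ovarian carcinoma were mostly absent: EPCAM stayed at or below 1.35 CPM as group means and KRT8 at or below 5.97, and CDH1, KRT7, KRT19, PAX8, WT1 and MUC16 were at or near 0. KRT18 reached 26.5 CPM in A2780cis and at most 2.89 in A2780. VIM, a mesenchymal marker, stood at 2367 ± 149.8 CPM in untreated and 862 ± 64.0 CPM in treated A2780 cells of 12 h (mean ± SD, n = 3), and at 2344 ± 89.8 and 843 ± 51.2 CPM in A2780cis, so it was lower in the treated cells, as most transport genes were, and its part in their values was not tested. PTPRC, PECAM1 and ALB, which mark leukocytes, endothelium and hepatocytes, were near 0, and CD68 stood at 2.83 to 7.46 CPM. The values are relative to the RNA in a library, so fewer cells expressing a gene and less of its RNA per cell cannot be told apart. The study describes 3'-C-ethynylcytidine as an inhibitor of RNA polymerase, and the amount of RNA per cell is not given. A higher or lower value after treatment is therefore a change in share, and need not be one in amount per cell.

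Levels between genes were compared per kilobase of the canonical transcript. In untreated A2780 cells of 12 h the highest level was that of KPNA2, an importin alpha, with 246 ± 9.24 CPM per kb (mean ± SD, n = 3). KPNB1, which encodes importin beta 1, IPO5 and XPO1, which encodes the main exportin for proteins with a leucine-rich export signal, followed with 146 ± 4.55, 145 ± 4.59 and 137 ± 11.7 CPM per kb and did not differ beyond their spread. KPNA5 and NUP210L were the lowest of the genes with counts, with 0.704 ± 0.117 and 0.0987 ± 0.0398. In untreated A2780cis cells of 12 h KPNA2 was again first with 197 ± 11.6 CPM per kb, followed by XPO1 with 131 ± 8.26 and KPNB1 with 119 ± 2.94, and IPO5 was lower in the order with 68.6 ± 5.67.

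After 12 h of 5-FdU-ECyd most nuclear transport genes had fallen in both lines. In A2780, 37 of the 45 genes tested were lower and 2 higher than in untreated cells of the same time (quasi-likelihood test of edgeR, two-sided, Benjamini-Hochberg adjusted p of at most 0.05), while 26.1% of all genes tested were called lower and 28.6% higher. In A2780cis, 39 were lower and 2 higher, against 28.9% and 31.0% of all genes. The median log2 fold change (log2 FC) came to -0.76 in A2780 cells and -0.89 in A2780cis cells, against 0.02 and 0.04 over all genes tested. Treated and untreated libraries did not overlap for 39 and 41 of the 45 genes, which held for 64.0% and 59.6% of all genes.

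The transport genes are expressed at high levels, and highly expressed protein-coding genes were called lower in a larger share than all genes tested. Among the 6103 protein-coding genes whose mean log2 CPM reached 5, a limit chosen after the values were seen, 44.2% were lower in A2780 and 50.5% in A2780cis, with median log2 FC of -0.20 and -0.27. Of the transport genes, 42 reached that level, and 37 and 39 of them were lower, with medians of -0.77 and -1.04. The cumulative plot of log2 FC shows this shift over most of the range. Together the 47 genes held 1.02% to 1.04% of all counts in untreated A2780 libraries of 12 h and 0.658% to 0.666% in treated ones. In A2780cis the share was 0.888% to 0.917% in untreated and 0.419% to 0.495% in treated libraries, without overlap in either line.

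**Figure D1:**
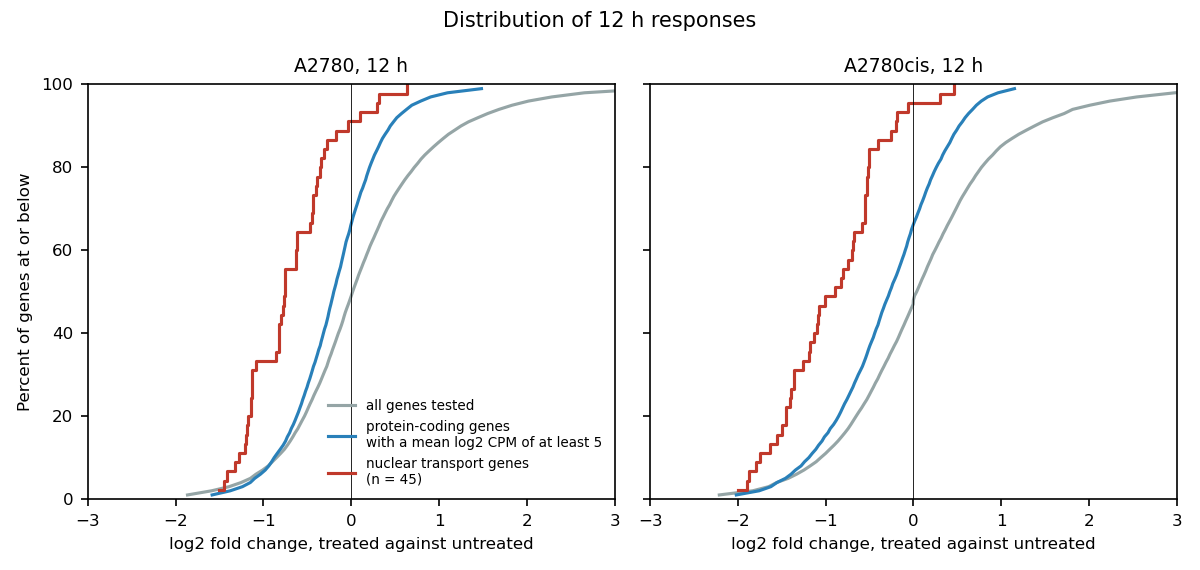
Cumulative percentage of genes (y axis) at or below a log2 FC (x axis) after 12 h in A2780 and A2780cis, for the 45 nuclear transport genes (red), highly expressed protein-coding genes (blue) and all genes tested (grey). Over most of the range the red curve lies to the left of the others, with medians of -0.76 in A2780 and -0.89 in A2780cis.

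Scaling by library size alone, without the TMM factors, raised the median of all genes at 12 h to 0.24 in A2780 and 0.15 in A2780cis. The transport genes moved along with it: their median stood 0.78 below that of all genes in A2780 and 0.93 below it in A2780cis under either scaling. The share of all calls that were increases went from 52.3% to 70.7% in A2780 cells and from 51.7% to 58.8% in A2780cis cells, and at 6 h from 54.5% to 63.7% and from 47.0% to 61.4%. Of the 37 decreases of A2780, 30 were kept under this scaling (those of IPO9, KPNA4, KPNA6, NUP54, NUP62, NUP85 and TNPO2 were lost), and 38 of the 39 of A2780cis (that of NUP210 was lost).

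**Figure D2:**
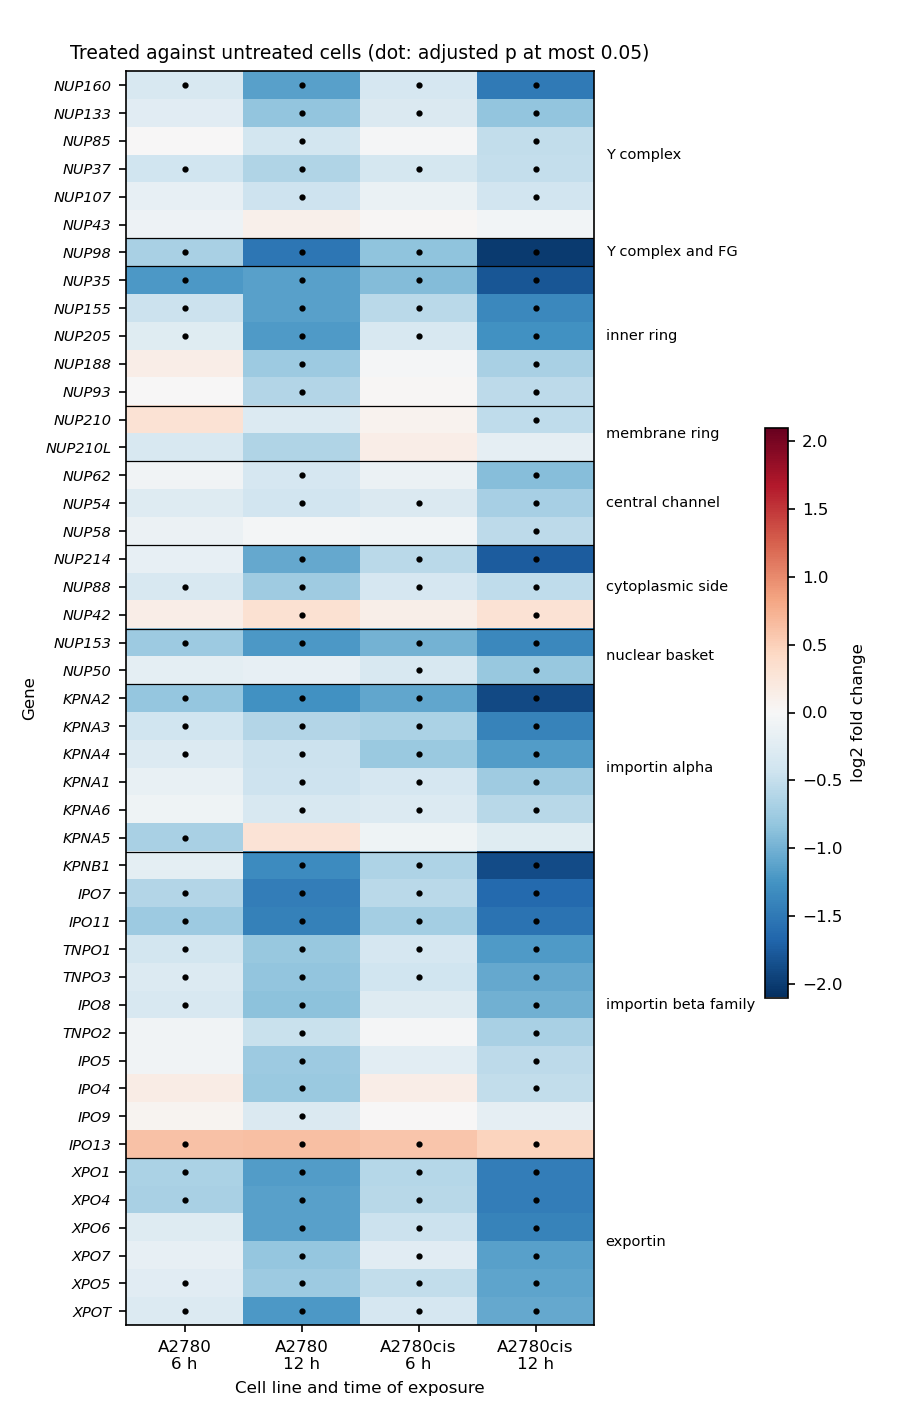
Fitted log2 FC of treated against untreated cells (colour scale) for the 45 genes tested (rows, grouped by role) in each line at 6 h and 12 h (columns), with a dot where the adjusted p was at most 0.05. Blue prevails at 12 h, with 37 genes lower in A2780 and 39 in A2780cis, and IPO13 is red in each of the 4 columns.

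Of the nucleoporins chosen by symbol, NUP98 had the largest decrease in both lines. Its transcript encodes both NUP98, an FG nucleoporin, and NUP96, a subunit of the Y complex (ENSG00000110713.15, chromosome 11 from 3671083 to 3797792, minus strand of GRCh38). In A2780 its 12 h levels were 262, 259 and 255 CPM in the untreated and 96.2, 88.6 and 87.7 CPM in the treated libraries (log2 FC = -1.51 with a standard error of 0.09, adjusted p = 7.76e-13). In A2780cis they were 244, 252 and 245 against 64.0, 64.4 and 56.4 CPM (log2 FC = -2.0 with a standard error of 0.09, adjusted p = 6.10e-15). The groups were far apart in both lines, and the treated A2780cis libraries were the lowest of all. Of the other 6 Y complex genes chosen by symbol, 5 fell in both lines, led by NUP160 with log2 FC of -1.14 in A2780 cells and -1.49 in A2780cis cells, while NUP43 was not called (log2 FC = 0.10 and -0.06). In single lines, 44.2% of highly expressed protein-coding genes were lower in A2780 and 50.5% in A2780cis.

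All 5 genes of the inner ring fell in both lines at 12 h, while 44.2% and 50.5% of highly expressed protein-coding genes did, A2780 first. NUP205 and NUP188 encode its large scaffold proteins, and NUP155, NUP93 and NUP35 complete it. NUP205 (ENSG00000155561.14, chromosome 7 from 135557917 to 135648757, plus strand) stood at 365, 373 and 357 CPM in untreated and 166, 158 and 158 CPM in treated A2780 libraries (log2 FC = -1.19 with a standard error of 0.09, adjusted p = 4.17e-11). In A2780cis the values were 384, 358 and 344 against 163, 146 and 144 CPM (log2 FC = -1.26 with a standard error of 0.09, adjusted p = 1.02e-11). NUP35 (ENSG00000163002.12, chromosome 2 from 183117513 to 183161680, plus strand) was expressed at a lower level, with 39.6, 35.4 and 31.0 against 18.2, 15.2 and 14.96 CPM in A2780 and 58.2, 51.6 and 47.9 against 16.4, 13.1 and 15.8 CPM in A2780cis. For both genes each treated library was below each untreated one. The log2 FC of NUP35 was -1.14 and -1.80, those of NUP155 -1.13 and -1.36, of NUP188 -0.76 and -0.69 and of NUP93 -0.62 and -0.55, A2780 first.

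The membrane ring and the central channel held 2 genes called lower in A2780 and 4 in A2780cis, of 5 tested. Of highly expressed protein-coding genes, 44.2% and 50.5% were lower, so the A2780 number was near this background. NUP210, a transmembrane nucleoporin, was lower in A2780cis (log2 FC = -0.53 with a standard error of 0.17, adjusted p = 0.00912), although the libraries of the 2 groups overlapped and the call was lost without control replicate 3, and was not called in A2780 (log2 FC = -0.28, adjusted p = 0.164). Its paralog NUP210L, at 0.576 ± 0.233 CPM in untreated A2780 cells of 12 h, was not called in any treatment comparison. NUP62, NUP54 and NUP58 form the FG-rich core of the channel. NUP62 fell from 138 ± 11.5 to 107 ± 10.0 CPM in A2780 cells (log2 FC = -0.36 with a standard error of 0.10, adjusted p = 0.00393), and A2780cis cells went from 152 ± 20.5 to 81.6 ± 5.23 CPM (log2 FC = -0.89 with a standard error of 0.10, adjusted p = 3.50e-08). The A2780 call was lost when libraries were scaled by their size alone (log2 FC = -0.13, adjusted p = 0.356), and 20.1% of the exon bases of NUP62 overlap other genes. NUP58 was called in A2780cis (log2 FC = -0.55, adjusted p = 1.22e-04) and not in A2780 (log2 FC = -0.03, adjusted p = 0.809).

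On the faces of the pore, the nuclear basket gene NUP153 and the cytoplasmic gene NUP214 fell in both lines. NUP153 (ENSG00000124789.11, chromosome 6 from 17615035 to 17706925, minus strand) encodes an FG nucleoporin that anchors the basket. Its 12 h levels in A2780 were 224, 239 and 223 CPM untreated and 102, 98.0 and 99.0 CPM treated (log2 FC = -1.20 with a standard error of 0.09, adjusted p = 7.65e-11). In A2780cis they were 169, 159.6 and 153 and 63.5, 65.9 and 58.8 CPM (log2 FC = -1.36 with a standard error of 0.10, adjusted p = 8.12e-12). Untreated and treated libraries were separate in both lines. NUP214 had log2 FC of -1.08 in A2780 cells and -1.75 in A2780cis cells, and its partner NUP88, 35.5% of whose exon bases overlap genes on the other strand, had -0.75 and -0.53. NUP50, which assists importin alpha at the basket, was called in A2780cis (log2 FC = -0.80) and not in A2780 (log2 FC = -0.18, adjusted p = 0.108).

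Of the importin alpha genes, KPNA2 showed the largest decrease at 12 h and KPNA5 was not called in either line. KPNA2 (ENSG00000182481.8, chromosome 17 from 68035636 to 68047364, plus strand) stood at 485, 504 and 467 CPM in untreated and 224, 195 and 183 CPM in treated A2780 libraries (log2 FC = -1.28 with a standard error of 0.09, adjusted p = 1.30e-11). In A2780cis it stood at 415, 379 and 373 against 112, 94.2 and 108 CPM (log2 FC = -1.89 with a standard error of 0.09, adjusted p = 1.34e-14). The treated libraries of A2780cis were below those of A2780 without overlap. The next largest decreases were those of KPNA3, with log2 FC of -0.62 in A2780 cells and -1.40 in A2780cis cells, and of KPNA4, with -0.44 and -1.17. KPNA1 had -0.44 and -0.75, and KPNA6 -0.34 and -0.59, all past the threshold. KPNA5, at 7.95 ± 1.33 CPM in untreated A2780 cells of 12 h, had 0.29 and -0.25. At 6 h it was lower in A2780, at 6.06, 7.59 and 9.04 CPM against 12.3, 10.9 and 13.4 CPM (log2 FC = -0.69 with a standard error of 0.16, adjusted p = 0.00278). Counts of KPNA2 and KPNA5, like those of IPO7, KPNB1, NUP50, NUP62 and TNPO1, were not whole numbers in over 75% of libraries, so part of their reads counted as fractions. The exons of KPNA2, KPNA5, IPO7 and NUP50 overlap no other counted gene, so part of their reads also aligned elsewhere. IPO4 held whole counts in every library although 69.5% of its exon bases overlap other genes. Whole counts therefore do not show that a gene shared no reads.

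**Figure D3:**
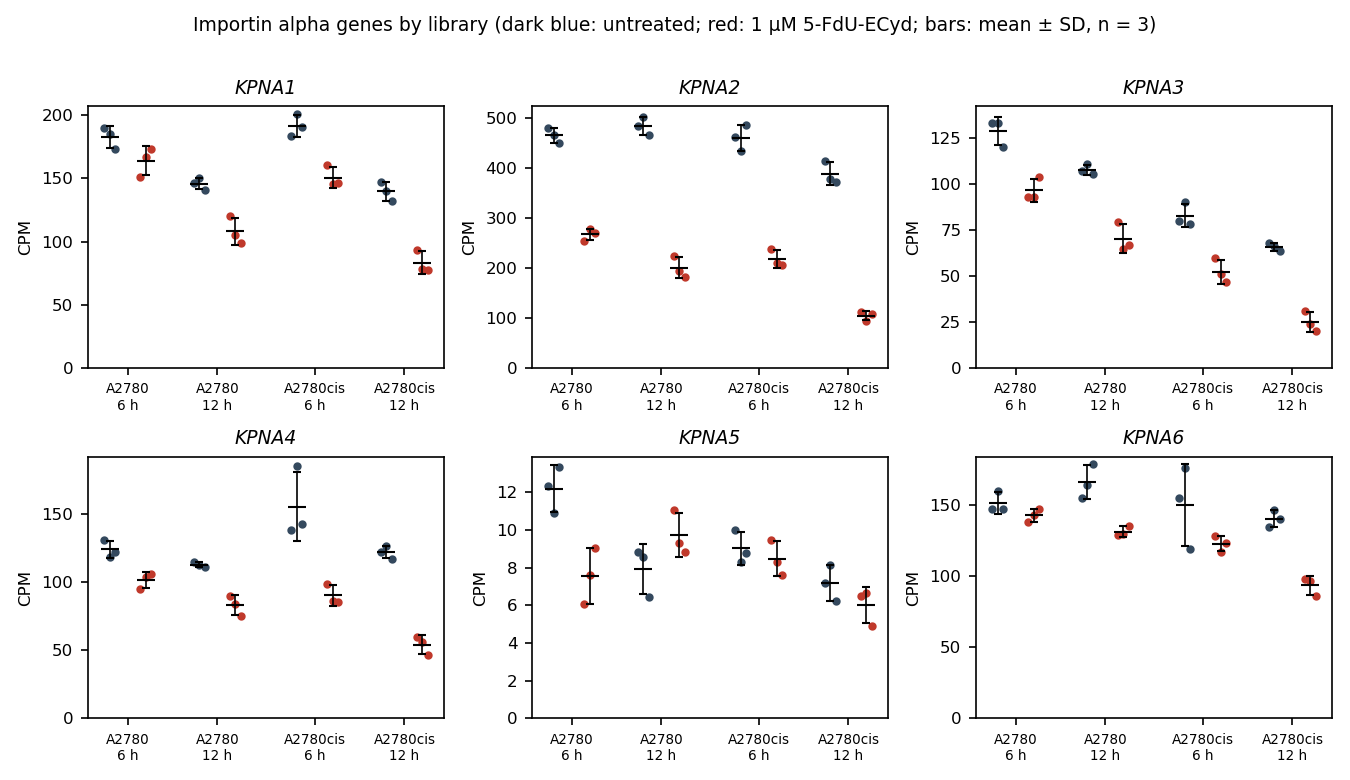
CPM (y axis, from 0) of the 6 importin alpha genes with counts, by library, in untreated (dark blue) and treated (red) cells of each line and time (x axis), with mean ± SD of 3 libraries. KPNA2 stands highest and falls to 105 CPM on average in A2780cis at 12 h, while the KPNA5 groups of 12 h overlap.

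In the importin beta family, 10 of 11 genes fell in A2780 and 9 of 11 in A2780cis at 12 h, and IPO13 rose in both. The shares of highly expressed protein-coding genes called lower were 44.2% and 50.5%. KPNB1 (ENSG00000108424.9, chromosome 17 from 47649476 to 47685505, plus strand), the partner of importin alpha, stood at 857, 886 and 912 CPM in untreated and 375, 353 and 334 CPM in treated A2780 libraries (log2 FC = -1.32 with a standard error of 0.09, adjusted p = 1.40e-11). In A2780cis the values were 711, 741 and 709 and 213, 188 and 188 CPM (log2 FC = -1.87 with a standard error of 0.10, adjusted p = 2.88e-14). The groups did not overlap, and the mean of treated A2780cis cells was 197 ± 14.5 CPM against 354 ± 20.8 CPM in treated A2780 cells. IPO7 (ENSG00000205339.9, chromosome 11 from 9384652 to 9448127, plus strand), an importer of ribosomal proteins and histones among others, fell from 616 ± 62.0 to 225 ± 14.9 CPM in A2780 cells, and in A2780cis from 714 ± 62.7 to 229.7 ± 33.3 CPM (log2 FC = -1.45 and -1.64, adjusted p = 4.67e-11 and 4.34e-12). IPO11 (ENSG00000086200.16, chromosome 5 from 62403972 to 62628582, plus strand) fell from 135 ± 11.8 to 50.7 ± 3.76 CPM in A2780 cells, and in A2780cis from 88.5 ± 9.36 to 30.3 ± 2.96 CPM (log2 FC = -1.41 and -1.55).

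Paralogs of this family are set side by side by their 12 h log2 FC. IPO8, the close paralog of IPO7, had log2 FC of -0.86 and -1.01 at 12 h, A2780 first, against -1.45 and -1.64 for IPO7. The transportins TNPO1 and TNPO2, which import RNA-binding proteins with a PY signal, had -0.80 and -1.19 against -0.47 and -0.68. IPO4 and IPO5 had -0.78 and -0.52 against -0.76 and -0.56. These differences between paralogs were not tested, and 69.5% of the exon bases of IPO4 overlap other genes. IPO9 was called in A2780 (log2 FC = -0.31, adjusted p = 0.00738) and missed the threshold in A2780cis (log2 FC = -0.19, adjusted p = 0.0806).

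All 6 exportin genes fell in both lines at 12 h, while 44.2% and 50.5% of highly expressed protein-coding genes did, A2780 first. The log2 FC of the exportin genes ran from -1.21 to -0.76 in A2780 cells and from -1.46 to -1.08 in A2780cis cells. XPO1 (ENSG00000082898.16, chromosome 2 from 61476032 to 61538741, minus strand) stood at 727, 706 and 617 CPM in untreated and 332, 289 and 288 CPM in treated A2780 libraries (log2 FC = -1.17 with a standard error of 0.10, adjusted p = 6.78e-10). In A2780cis its values were 696, 656 and 613 against 275, 238 and 203 CPM (log2 FC = -1.46 with a standard error of 0.10, adjusted p = 1.14e-11). Treated libraries were below untreated ones without overlap, and the 2 treated groups lay next to each other. XPOT (ENSG00000184575.11, chromosome 12 from 64404392 to 64451125, plus strand), the exportin of tRNA, fell from 589 ± 19.1 to 255 ± 23.0 CPM in A2780 cells (log2 FC = -1.21 with a standard error of 0.10, adjusted p = 1.31e-10), and A2780cis cells went from 499 ± 30.8 to 236 ± 28.2 CPM (log2 FC = -1.08 with a standard error of 0.10, adjusted p = 6.79e-10). XPO5 (ENSG00000124571.17, chromosome 6 from 43522334 to 43576038, minus strand), which exports pre-miRNA, fell from 228 ± 8.51 to 135 ± 5.82 CPM and from 238 ± 6.27 to 111 ± 3.40 CPM (A2780 first, log2 FC = -0.76 and -1.10). The paralogs XPO4 and XPO7 had -1.14 and -1.45 against -0.82 and -1.13, and XPO6, the exportin of actin, -1.13 and -1.41.

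**Figure D4:**
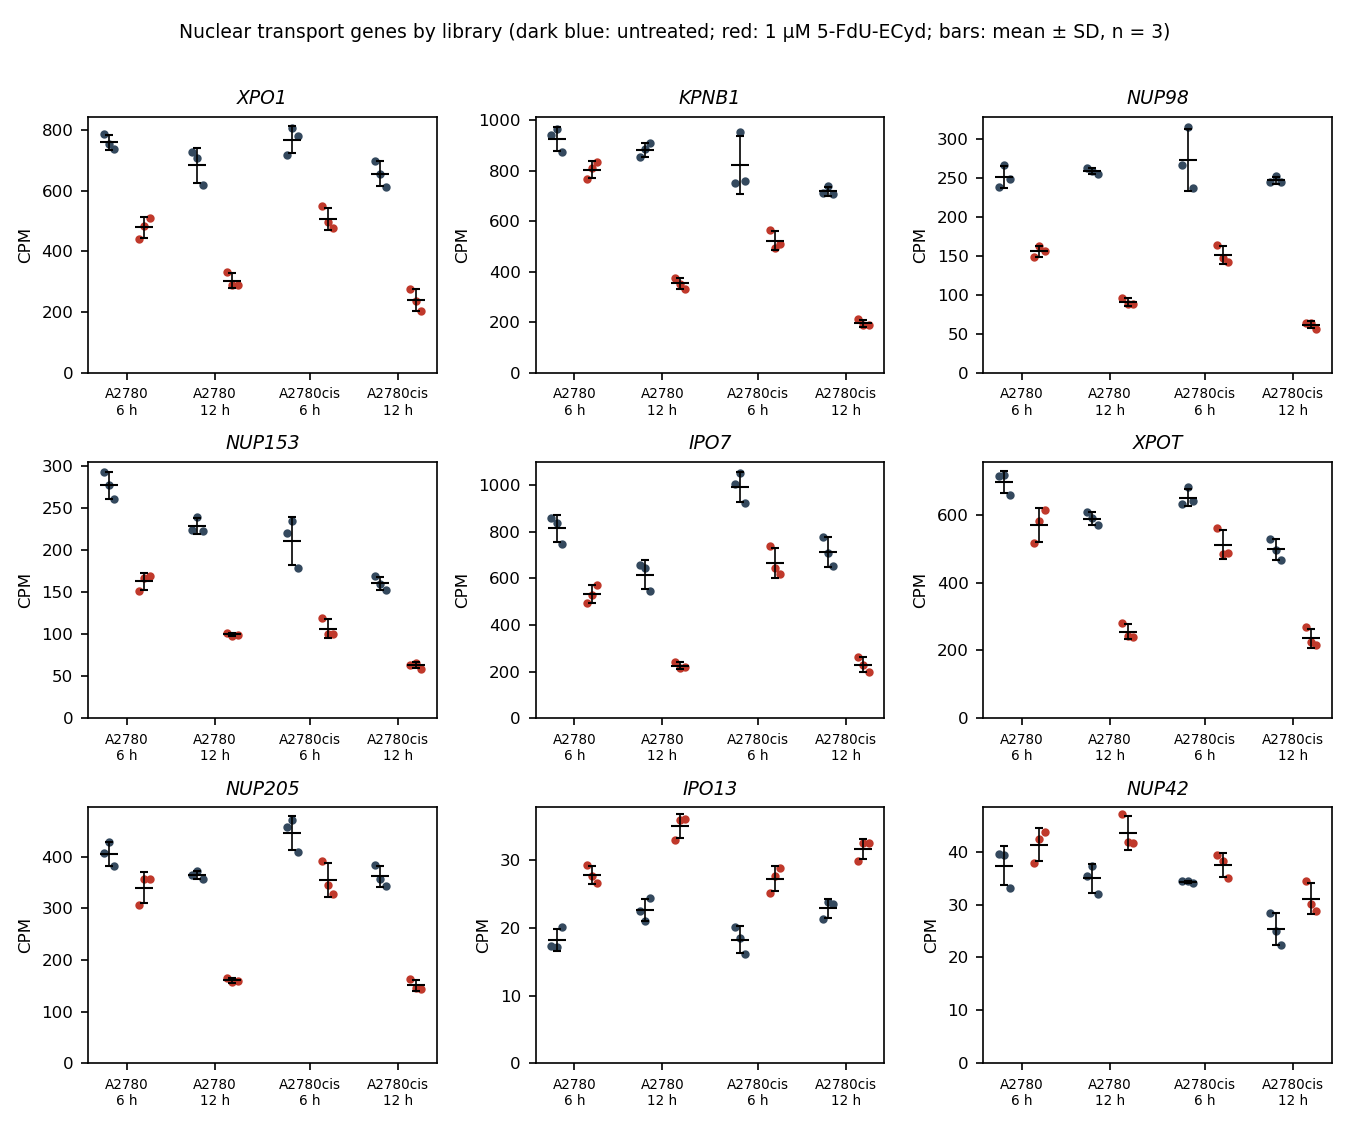
CPM (y axis, from 0) of 9 nuclear transport genes by library in untreated (dark blue) and treated (red) cells of each line and time (x axis), with mean ± SD of 3 libraries. For the 7 genes that fell, the treated libraries of 12 h lie below all untreated ones of their line, and for IPO13 they lie above.

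Against this direction, IPO13 rose in each of the 4 treatment comparisons. It encodes a carrier of the importin beta family that works in both directions (ENSG00000117408.10, chromosome 1 from 43946950 to 43968022, plus strand). In A2780 it stood at 17.4, 17.1 and 20.1 CPM untreated and 29.3, 27.7 and 26.6 CPM treated at 6 h (log2 FC = 0.61, adjusted p = 9.28e-05), and at 22.5, 21.0 and 24.4 and 33.0, 36.0 and 36.1 CPM at 12 h (log2 FC = 0.63 with a standard error of 0.10, adjusted p = 7.19e-06). In A2780cis it stood at 20.2, 18.6 and 16.1 and 25.2, 27.7 and 28.9 CPM at 6 h (log2 FC = 0.58, adjusted p = 1.43e-04), and at 21.3, 23.9 and 23.5 and 29.9, 32.6 and 32.5 CPM at 12 h (log2 FC = 0.47 with a standard error of 0.10, adjusted p = 2.44e-04). In none of these 4 pairs of groups did treated and untreated libraries overlap. IPO13 held whole counts in every library, and its exons overlap no other gene.

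NUP42, a nucleoporin of the cytoplasmic side that takes part in mRNA export, was higher at 12 h in A2780 (35.4, 37.3 and 32.1 CPM untreated, 47.2, 41.8 and 41.6 CPM treated, log2 FC = 0.32, adjusted p = 0.0123) and in A2780cis (28.4, 25.1 and 22.4 and 34.4, 30.2 and 28.8 CPM, log2 FC = 0.30, adjusted p = 0.0178). The treated libraries lay just above the untreated ones. The call was lost in A2780 without control replicate 3 or treated replicate 1, and in A2780cis without control replicate 2, control replicate 3 or treated replicate 1. With 1 library left out its log2 FC ranged from 0.24 to 0.36 in A2780 cells and from 0.19 to 0.38 in A2780cis cells. NUP43 and NUP210L were not called in any of the 4 comparisons.

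At 6 h the decrease was smaller and involved fewer genes. In A2780, 21 of the 45 genes were lower and 1 higher, against 13.4% and 16.0% of all genes tested, with a median log2 FC of -0.25 against 0.04 over all genes. Without treated replicate 1 of A2780 the number lower was 13. In A2780cis, 28 were lower and 1 higher, against 16.3% and 14.4%, with a median of -0.34 against 0.00. The groups did not overlap for 29 and 28 of the 45 genes (41.6% and 43.2% of all genes). Of the 42 highly expressed transport genes, 20 and 28 were lower, against 22.0% and 28.8% of highly expressed protein-coding genes.

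The largest decreases of 6 h in A2780 were those of NUP35, KPNA2, NUP153 and IPO11, and in A2780cis those of KPNA2, NUP153, NUP35 and NUP98. NUP35 stood at 47.2, 47.1 and 46.7 CPM in untreated and 18.0, 20.3 and 22.5 CPM in treated A2780 libraries (log2 FC = -1.21 with a standard error of 0.13, adjusted p = 1.27e-07). KPNA2 stood at 463, 435 and 487 CPM in untreated and 238, 211 and 205 CPM in treated A2780cis libraries (log2 FC = -1.08 with a standard error of 0.09, adjusted p = 2.08e-09), and its log2 FC in A2780 was -0.80. NUP153 had log2 FC of -0.77 in A2780 cells and -0.99 in A2780cis cells. In all of these the treated and untreated libraries were separate. XPO1 was lower at 6 h in both lines, with 787, 753.7 and 738 against 441, 485 and 511 CPM in A2780 (log2 FC = -0.66) and 718, 806 and 779 against 548, 495 and 476 CPM in A2780cis (log2 FC = -0.60). KPNB1 passed the threshold at 6 h in A2780cis (log2 FC = -0.65) and not in A2780 (log2 FC = -0.20, adjusted p = 0.106).

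In total 19 of the 45 genes were lower in all 4 comparisons: NUP98, NUP160 and NUP37 of the Y complex, NUP155, NUP205 and NUP35 of the inner ring, NUP88 and NUP153, KPNA2, KPNA3 and KPNA4, IPO7, IPO11, TNPO1 and TNPO3, and XPO1, XPO4, XPO5 and XPOT. Without treated replicate 1 of A2780 at 6 h, 12 of the 19 kept all 4 calls, and KPNA4, NUP160, NUP205, NUP37, TNPO1, XPO5 and XPOT did not. At 12 h, 36 genes were lower in both lines, and a log2 FC of -1 or less was reached by 15 genes in A2780 and 22 in A2780cis. The shares of all genes that met these combined rules were not counted, so how unusual these numbers are is not known. In single comparisons 13.4% of all genes were lower in A2780 and 16.3% in A2780cis at 6 h, and 26.1% and 28.9% at 12 h.

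Whether the response grew from 6 h to 12 h was tested as the difference of the 2 log2 FC. In A2780, 27 of the 45 genes differed (23.7% of all genes), 26 with a lower value at 12 h and KPNA5 with a higher one (difference of 0.98), against 13.0% and 10.7% of all genes. In A2780cis, 31 differed, all with a lower value at 12 h, against 13.6% of all genes. The shares of highly expressed protein-coding genes were not counted for these 2 contrasts. KPNB1 showed the largest decrease in both lines, of -1.12 (standard error 0.13, adjusted p = 2.33e-06) in A2780 and -1.22 (standard error 0.13, adjusted p = 1.33e-06) in A2780cis. NUP205 and XPOT had the next smallest p in A2780, with -0.93 and -0.92, and NUP98 and NUP160 in A2780cis with -1.15 and -1.14. For IPO13 the difference was 0.02 in A2780 (adjusted p = 0.956) and -0.11 in A2780cis (adjusted p = 0.618).

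Part of the genes responded differently in the lines at 12 h. The test of the difference between lines called 11 of the 45 genes (24.4%), near the 23.7% of all genes called in either direction. The share of highly expressed protein-coding genes was not counted for this contrast. Each of the 11 had a lower log2 FC in A2780cis, while 14.0% of all genes were called lower. They were the importin alpha genes KPNA2, KPNA3 and KPNA4, importin beta 1 (KPNB1), the exportin XPO5 and the nucleoporins NUP35, NUP50, NUP58, NUP62, NUP98 and NUP214. The 3 with the smallest p were KPNA4 (difference of -0.73, standard error 0.15, adjusted p = 8.90e-04), KPNA2 (-0.62, standard error 0.13, adjusted p = 0.00110) and KPNA3 (-0.78, standard error 0.16, adjusted p = 0.00125).

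Libraries of KPNA4 show the contrast. In A2780 they stood at 115, 112 and 111 CPM untreated and 89.6, 83.7 and 75.1 CPM treated, and in A2780cis at 122, 126 and 117 and 59.6, 56.2 and 46.3 CPM. KPNA3 started lower in A2780cis, at 67.6, 66.1 and 63.5 CPM against 107, 111 and 105 CPM in A2780, and ended at 30.9, 24.1 and 19.9 against 79.0, 64.7 and 66.9 CPM. The treated A2780cis libraries were below the treated A2780 ones for both genes, without overlap. Over the 45 genes 35 had a lower 12 h log2 FC in A2780cis. How many of all genes did was not counted, and the median difference over all genes was -0.04. The 2 lines ranked the 45 genes alike, with Spearman's rho of 0.825 and Pearson's r of 0.870 across genes, which are not independent replicates. XPO1 was not called (difference of -0.28, adjusted p = 0.165), nor was XPOT (0.13, adjusted p = 0.540). Scaling by library size alone, which lowers the median of all genes in this contrast from -0.04 to -0.16, raised the number called from 11 to 20.

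**Figure D5:**
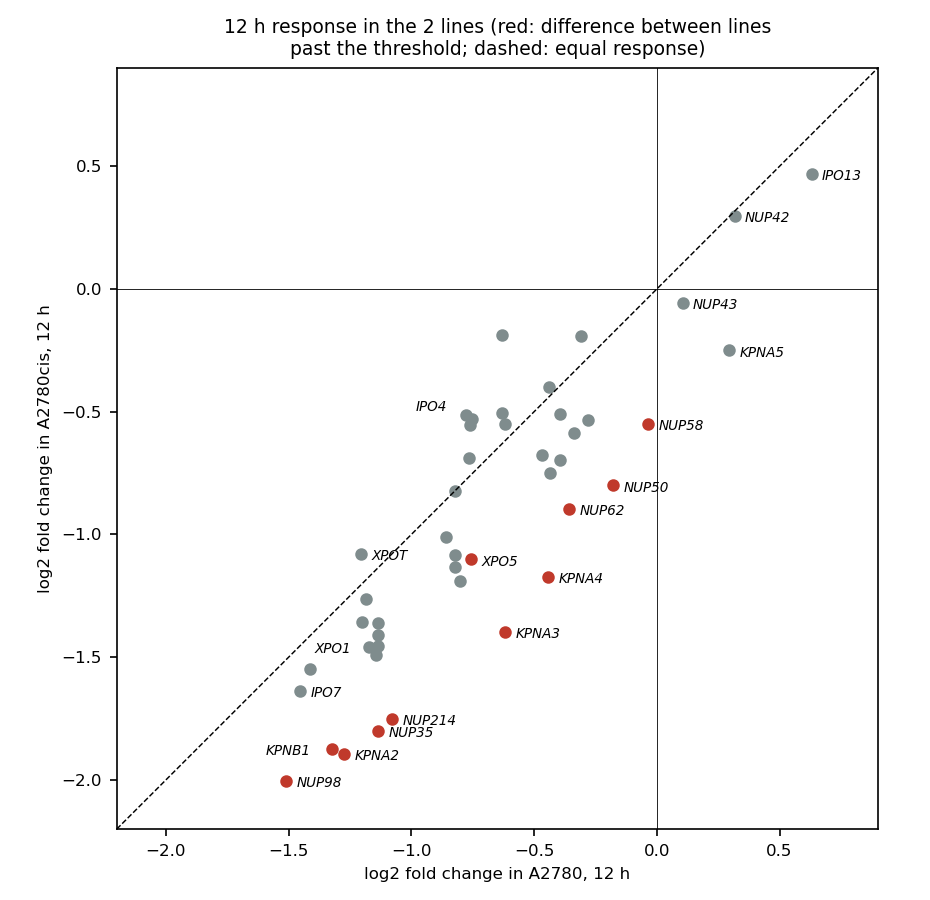
Log2 FC at 12 h in A2780 (x axis) against A2780cis (y axis) for the 45 genes, with the line of equal response dashed and the 11 genes whose difference between lines passed the threshold in red. All 11 lie below the line, and NUP98 is the lowest in both lines.

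At 6 h the test of the difference between lines (edgeR's quasi-likelihood test) called 0 of the 45 genes, against 3.07% of all genes, 5 had an unadjusted p under 0.05, and the Wald test of DESeq2 called 2. Without control replicate 1 or control replicate 3 of A2780cis at 6 h edgeR called 2 as well. The smallest p was that of KPNB1, with a difference of -0.45 (adjusted p = 0.0608), followed by KPNA4 with -0.50 (adjusted p = 0.0643).

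Untreated cells of the lines differed in a smaller share of the transport genes than of all genes: 37.8% of the 45 were called at either time, against 47.9% of all genes at 6 h and 52.9% at 12 h. Against A2780, untreated A2780cis cells had 6 transport genes higher and 11 lower at 6 h (25.0% and 22.9% of all genes), and 2 higher and 15 lower at 12 h (25.4% and 27.5%). The libraries of the lines did not overlap for 18 and 22 of the 45 genes, against 52.0% and 62.3% of all genes. IPO5 stood at 1048, 1111 and 995 CPM in untreated A2780 and 526, 516 and 519 CPM in untreated A2780cis libraries of 6 h (log2 FC = -1.01 with a standard error of 0.10, adjusted p = 1.22e-09), and its log2 FC at 12 h was -1.08. XPO4 stood at 240.1, 251 and 214 against 125, 121 and 103 CPM (log2 FC = -1.01 with a standard error of 0.12, adjusted p = 3.51e-08), with -1.0 at 12 h. NUP88 had -0.62 and -0.79. For IPO5 and XPO4 the lines were far apart in every library. NUP35 was higher in A2780cis at both times (log2 FC = 0.77 and 0.57), as was IPO4 (0.38 and 0.53).

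Untreated cells changed between 6 h and 12 h as well, and each treated group was compared with the controls of its own time. In A2780, 5 transport genes were higher and 11 lower at 12 h (16.6% and 10.3% of all genes), and in A2780cis 5 were higher and 22 lower (18.0% and 21.9%). The A2780 number rested on single libraries: without control replicate 1 of 6 h it was 6 in all, and without control replicate 3 of 12 h it was 5. The A2780cis number was 16 in all without control replicate 3 of 12 h. NUP62 rose with time in untreated cells of both lines, with log2 FC of 0.44 in A2780 (adjusted p = 0.00340) and 0.54 in A2780cis (adjusted p = 2.95e-04), as did IPO4 (0.60 and 0.76). TNPO1 was lower at 12 h in both (-0.67 and -0.43).

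Of 42 other genes of nuclear transport, chosen by function, 28 (66.7%) were lower and 3 higher in A2780 at 12 h, and 23 (54.8%) lower and 3 higher in A2780cis. Among highly expressed protein-coding genes 44.2% and 50.5% were lower, so the A2780cis share was near this background. Their median log2 FC was -0.37 and -0.35, against -0.20 and -0.27. At 6 h, 12 (28.6%) were lower in each line, against 22.0% and 28.8% of highly expressed protein-coding genes, with 4 higher in A2780 and 1 in A2780cis, and the 13 called in A2780cis became 8 without treated replicate 2. Among 13 other pore proteins 8 (61.5%) fell and 1 rose in A2780, and 10 (76.9%) fell in A2780cis at 12 h. AHCTF1, which seeds pore assembly on chromatin, fell from 384 ± 39.8 to 129 ± 9.63 CPM in A2780 cells (log2 FC = -1.57 with a standard error of 0.11, adjusted p = 3.90e-12), and A2780cis cells went from 369 ± 19.8 to 75.7 ± 5.90 CPM (log2 FC = -2.29 with a standard error of 0.11, adjusted p = 6.27e-15). TPR, the main strand of the nuclear basket, had log2 FC of -1.12 and -1.66, in A2780 and A2780cis.

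Of 11 genes of the Ran cycle and of other carriers, 9 (81.8%) fell in A2780, and 6 (54.5%) fell and 1 rose in A2780cis at 12 h. RCC1, the exchange factor of Ran in the nucleus, had log2 FC of -0.88 and -1.19, and CSE1L, the exportin that returns importin alpha to the cytoplasm, -1.23 and -1.27. Of 18 mRNA export genes, 11 (61.1%) fell and 2 rose in A2780, and 7 (38.9%) fell and 2 rose in A2780cis, the latter share below the 50.5% of highly expressed protein-coding genes. NXF1, the main mRNA export receptor, rose from 64.4 ± 1.41 to 109 ± 8.56 CPM in A2780 cells (log2 FC = 0.76 with a standard error of 0.10, adjusted p = 2.77e-07), and A2780cis cells went from 64.3 ± 3.44 to 136 ± 15.2 CPM (log2 FC = 1.08 with a standard error of 0.10, adjusted p = 6.38e-10). THOC2, of the THO complex, fell in both lines (log2 FC = -1.10 and -1.22).

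The loci of the 45 transport genes tested had a median span of 63.9 kb, which was not compared with that of other genes. Of the 22 genes longer than the median, 20 were lower in A2780 and 21 in A2780cis at 12 h, with median log2 FC of -0.82 and -1.18. Of the other 23, 17 and 18 were lower and 2 rose in each line, with medians of -0.47 and -0.68. Spearman's rho of span and 12 h log2 FC across the 45 genes was -0.35 in A2780 and -0.34 in A2780cis, and across the 6103 highly expressed protein-coding genes -0.28 and -0.48. The part of gene length in these changes was not tested.

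Promoter windows of 250 bases before the annotated start were taken from RefSeq (GRCh38.p14), since most transport genes fell at 12 h. They were found for 41 of the 47 genes, as 53 windows in all, and 22198 windows of protein-coding genes served for comparison. All motifs were searched on either strand. The CCAAT box (letters CCAAT) was in 25 of the 53 windows, or 47.2%, against 32.7% of all. The GC box (GGGCGG) was in 49.1% against 53.7%, the ETS motif (CCGGAAG) in 22.6% against 10.7%, the CRE (TGACGTCA) in 7.55% against 2.01% and the TATA box (TATAAA) in 7.55% against 9.01%. The NRF1 motif was in 5.66% against 1.28%, the E2F motifs TTTCGCGC and TTTGGCGC in 1.89% against 0.608% and 0% against 0.685%, and the YY1 motif in 0% against 0.261%. These are descriptions of letters, counted in windows of which some belong to the same gene. The windows include those of genes that did not fall: the CRE was in windows of NUP133 and NUP214, but also of NUP210L and NUP42. The CCAAT windows include those of NUP62CL, NUP210L and NUP42. The comparison windows were not limited to genes expressed in these cells. Median GC content was 62.0% in both sets.

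Windows are shown for the transporter and the nucleoporin with the largest decrease in A2780 at 12 h, and for the gene with the largest increase, among the 10 genes whose window holds no annotated exon. Capitals mark the motifs found, none of which overlaps another, and IPO7 holds none of those searched.
IPO7 (chr11:9384402-9384651, plus strand): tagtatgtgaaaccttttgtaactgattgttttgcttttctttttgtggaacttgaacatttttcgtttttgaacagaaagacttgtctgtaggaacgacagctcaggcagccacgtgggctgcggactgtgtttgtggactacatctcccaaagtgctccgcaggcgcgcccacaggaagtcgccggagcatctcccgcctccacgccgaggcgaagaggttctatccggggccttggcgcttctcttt
NUP205 (chr7:135557667-135557916, plus strand, CCAAT box): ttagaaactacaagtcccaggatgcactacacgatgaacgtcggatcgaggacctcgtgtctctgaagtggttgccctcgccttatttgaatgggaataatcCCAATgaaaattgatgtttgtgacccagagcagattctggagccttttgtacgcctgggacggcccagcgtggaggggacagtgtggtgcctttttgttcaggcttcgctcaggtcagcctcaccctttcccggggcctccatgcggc
IPO13 (chr1:43946700-43946949, plus strand, GC box): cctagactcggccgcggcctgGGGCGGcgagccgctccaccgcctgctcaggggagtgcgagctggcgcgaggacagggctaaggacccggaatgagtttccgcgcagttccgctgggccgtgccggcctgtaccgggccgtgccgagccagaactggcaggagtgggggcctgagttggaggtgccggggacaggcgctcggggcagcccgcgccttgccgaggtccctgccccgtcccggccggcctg
GC content in these windows was 51.6% for IPO7, 54.0% for NUP205 and 74.8% for IPO13, against a median of 62.0% over the 53 windows. A relation of GC content to the change after treatment was not tested.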

How the data were processed

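The authors sequenced total RNA of the 8 groups of 3 libraries with a stranded total RNA kit. They trimmed reads, aligned them with STAR 2.5.2b to GRCh38.p7 and counted them over exons with featureCounts, with fractions for multi-mapped reads. Reads that fell on overlapping genes were counted as well. The strand setting is not given in the sources used here, and the labels describe single reads while the study's methods describe paired ends. The deposited values are expected counts, not normalized, with totals of 11077368 to 21901406 per library. Depth limits precision, and floors (3 counts) cover counting error only.

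Expected counts were rounded. Genes were matched to GENCODE 44 (56948 of 63299 identifiers). The 20240 genes that passed filterByExpr (at least 10 counts by its rule, 15 in total) were TMM-normalized and fitted in edgeR 4.0.16 (R 4.3.3), with 1 coefficient for each of 8 groups and 16 residual degrees of freedom. Contrasts were tested with the quasi-likelihood test and Benjamini-Hochberg adjustment over all genes, two-sided, threshold 0.05. Standard errors are the absolute log2 FC over the square root of F. CPM are TMM-normalized. The procedure was tested on simulated data. The members, roles and lists were chosen with earlier results of these data known, and no list was tested. Genes named were the 4 largest increases and 4 largest decreases past the threshold in each treatment comparison (mean log2 CPM of at least 2), the 3 smallest p of the comparisons between lines, 8 fixed transport genes, paralogs, and genes at the floor; of the other lists the 2 smallest p at 12 h. Other genes of the same family were named to complete a role. Alternatives were DESeq2 size factors, library size alone, no filter, unrounded counts, a replicate block, DESeq2 1.42.0, protein-coding genes alone, compared libraries alone and each library left out. Replicates of a group differed beyond sampling noise (chi-square over degrees of freedom 2.17 to 22.9). Figures used Python 3.11.15, pandas 2.3.3 and matplotlib 3.10.9.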

Additional observations from a re-analysis of the deposited data

Results flagged for a closer look

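The 12 h response differed between the lines, by the test of the difference itself, for 11 genes, with values of log2 FC in A2780cis minus A2780 of -0.62 for KPNA2, -0.78 for KPNA3, -0.73 for KPNA4, -0.55 for KPNB1, -0.67 for NUP214, -0.66 for NUP35, -0.62 for NUP50, -0.52 for NUP58, -0.54 for NUP62, -0.49 for NUP98 and -0.35 for XPO5 (quasi-likelihood test of edgeR, Benjamini-Hochberg adjusted over 20240 genes). The 11 genes are 24.4% of the 45 tested, near the 23.7% of all genes called in either direction, while 14.0% of all genes were called lower.

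The response of 12 h differed from that of 6 h for 27 of the 45 genes in A2780 and 31 in A2780cis by the same kind of test. Of all genes, 23.7% differed in A2780. The 31 genes of A2780cis were all lower, against 13.6% of all genes called lower. The shares of highly expressed protein-coding genes were not counted here. In A2780 the 3 smallest p belonged to KPNB1 (-1.12), NUP205 (-0.93) and XPOT (-0.92), and in A2780cis to KPNB1 (-1.22), NUP98 (-1.15) and NUP160 (-1.14), each as the log2 FC of 12 h minus that of 6 h.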

How the results depend on the processing

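The number of genes lower at 12 h stayed within 1.5 times of 37 in A2780 and 39 in A2780cis under every alternative run. Library size alone gave 4 genes higher in A2780 at 12 h, medians of -0.54 and -0.79 at 12 h, 20 genes in the 12 h difference between lines and 15 in untreated A2780cis over time. Without a filter, 2 genes were higher at 6 h in A2780 and 1 at 12 h in each line. Compared libraries alone gave 1 gene higher in A2780cis at 12 h, and protein-coding genes alone a median of -0.79 there. In the 6 h difference between lines, DESeq2 called 2 genes and the replicate block 1. Replicate numbers gave no clear sign of pairing: the correlations of same-numbered deviations ran from -0.25 to 0.31, and the block moved no other of these counts by more than 1.5 times. With 3 libraries per group these checks cannot exclude pairing. The block raised the number of all genes called in A2780 at 6 h from 5950 to 6281. Leaving out 1 library gave 13 to 20 genes lower at 6 h in A2780, 1 to 2 higher at 12 h in each line, a 12 h median of -0.97 to -0.88 in A2780cis, 0 to 2 genes in the 6 h difference between lines, 5 to 18 in untreated A2780 and 16 to 30 in untreated A2780cis over time, and 8 to 14 other transport genes called at 6 h in A2780cis. Among single genes, NUP42 lost its call without a filter (0.29 in A2780, 0.25 in A2780cis) and in A2780cis with compared libraries alone (0.29), and NUP62 in A2780 with library size alone (-0.13). The causes were not tested. No called direction was reversed, but values that missed the threshold changed sign under some alternatives: NUP50 (library size alone) and NUP58 (library size alone, protein-coding genes alone and without treated replicate 2) in A2780 at 12 h, NUP43 (library size alone, protein-coding genes alone) in A2780cis at 12 h, and at 6 h 11 genes in either line, among them IPO9, NUP93 and NUP188.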
